A study of Mus musculus with 20 samples.

Results

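Antigen presentation genes were followed in livers of mice labelled OGTL KO or OGTL WT. The genes were H2-Aa, H2-Ab1, H2-Eb1, Cd74, Ciita, B2m, Tap1, Tapbp, Psmb8 and Psmb9, picked by symbol, with 1 array feature per gene. Of these 10 genes, 9 were measured, among 19505 genes in all, and Cd74 was not analysed here. RNA from whole liver was hybridised to 20 Clariom S Mouse arrays, 5 each from KO mice aged 4 weeks, WT mice aged 4 weeks, KO mice aged 8 weeks and WT mice aged 8 weeks. OGT is the O-GlcNAc transferase, which puts a single sugar on proteins of the nucleus and cytoplasm, and the label names the liver as the site of its loss. The labels name no promoter for the deletion, no strain and no sex, and no treatment was recorded for any group. Each array was 1 mouse, per the series text.

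MHC class II molecules are pairs of an alpha and a beta chain that show peptides from the endocytic route to CD4+ T cells. Ciita is the coactivator that switches on class II transcription, mainly in dendritic cells, B cells and activated macrophages. MHC class I molecules are a heavy chain joined to B2m and show peptides made by the proteasome to CD8+ T cells. Tap1, with Tap2, carries those peptides into the endoplasmic reticulum, Tapbp (tapasin) holds class I molecules at the transporter, and Psmb8 and Psmb9 are catalytic subunits of the interferon-induced immunoproteasome. In liver, Kupffer cells, dendritic cells and sinusoidal endothelial cells are known to present antigen, and hepatocytes carry class I and little class II.

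RefSeq promoter windows on GRCm38.p6, 250 bases before to 50 bases after the start, were found for 7 of the 9 measured genes. H2-Ab1 and Ciita had no window in the table. A window of each branch of the pathway is printed on the gene's own strand, with matches to the searched motifs in capitals. The windows are H2-Aa at chr17:34287774-34288073 (minus strand), H2-Eb1 at chr17:34305617-34305916 (plus strand), B2m at chr2:122147437-122147736 (plus strand), Tap1 at chr17:34187306-34187605 (plus strand) and Psmb8 at chr17:34197945-34198244 (plus strand).
H2-Aa: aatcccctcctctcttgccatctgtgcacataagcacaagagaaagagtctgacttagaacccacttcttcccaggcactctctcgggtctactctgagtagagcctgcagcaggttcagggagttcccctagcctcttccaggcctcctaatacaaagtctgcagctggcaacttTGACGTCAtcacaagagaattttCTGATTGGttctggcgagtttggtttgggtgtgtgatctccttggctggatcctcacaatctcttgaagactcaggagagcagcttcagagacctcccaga
H2-Eb1: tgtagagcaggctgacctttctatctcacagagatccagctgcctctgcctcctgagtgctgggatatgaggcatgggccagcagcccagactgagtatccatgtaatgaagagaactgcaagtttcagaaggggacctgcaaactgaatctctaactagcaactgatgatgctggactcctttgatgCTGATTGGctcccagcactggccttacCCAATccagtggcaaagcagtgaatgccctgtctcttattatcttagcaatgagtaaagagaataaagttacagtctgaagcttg
B2m: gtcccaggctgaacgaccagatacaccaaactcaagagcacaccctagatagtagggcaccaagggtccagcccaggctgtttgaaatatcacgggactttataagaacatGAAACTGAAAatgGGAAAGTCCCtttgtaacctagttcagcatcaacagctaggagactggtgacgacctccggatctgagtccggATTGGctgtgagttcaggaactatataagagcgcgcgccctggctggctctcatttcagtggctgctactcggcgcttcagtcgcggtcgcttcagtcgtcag
Tap1: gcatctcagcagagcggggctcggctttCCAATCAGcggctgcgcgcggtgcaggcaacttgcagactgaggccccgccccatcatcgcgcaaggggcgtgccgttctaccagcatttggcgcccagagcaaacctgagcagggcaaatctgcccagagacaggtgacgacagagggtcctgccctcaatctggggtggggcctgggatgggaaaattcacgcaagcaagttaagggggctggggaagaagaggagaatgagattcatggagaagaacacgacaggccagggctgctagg
Psmb8: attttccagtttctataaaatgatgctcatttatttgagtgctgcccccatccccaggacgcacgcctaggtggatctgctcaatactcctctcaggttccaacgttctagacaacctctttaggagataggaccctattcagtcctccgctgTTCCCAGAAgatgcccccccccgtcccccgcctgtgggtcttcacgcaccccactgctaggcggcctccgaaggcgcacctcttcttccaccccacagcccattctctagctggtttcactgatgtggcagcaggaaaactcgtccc

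The motifs were looked for on both strands. CTGATTGG, a CCAAT box read on its other strand with 3 flanking bases, was in the windows of H2-Aa, H2-Eb1, Tap1 and Psmb9, and in 4.10% of the 32851 windows of the table. It began 51 bases before the start of H2-Aa and 62 bases before that of H2-Eb1. The Tap1 and Psmb9 windows lie head to head, with starts 226 bases apart and 275 shared bases, so their match is 1 site, read 222 bases before Tap1 and 11 bases before Psmb9. CCAAT alone, which CTGATTGG holds on the other strand, was in 6 of the 7 windows (not Psmb8) and in 37.4% of all. TGACGTCA, the cAMP response element, was found in the H2-Aa window, 74 bases before the start, and in 1.79% of all windows. The B2m window held an interferon-stimulated response element, searched as GAAA, any 2 bases and GAAA (3.44% of all windows), and a site for NF-kB, the second run of capitals in the window (0.155% of all windows). They began 139 and 126 bases before the start. The Psmb8 window held TTCNNNGAA, the gamma-activated site (8.30% of all windows), 97 bases before the start. The motifs were chosen with these windows in view, and a match is a description of the letters.

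The values were log2 signals, so that a difference of 1 is 2-fold, and they ran from 2.32 to 19.85 with array medians of 5.42 to 5.58. A group mean at or under the 95th percentile of olfactory and vomeronasal receptor genes, 5.01 to 5.20 by group, is called not above background. Ogt was 7.37 to 8.84 in KO and 9.14 to 9.87 in WT at 4 weeks (limma adjusted p = 8.82e-05), and the groups did not overlap. At 8 weeks it was 9.55 to 10.01 in arrays labelled KO and 9.84 to 10.33 in WT, which overlapped (difference -0.27, limma adjusted p = 0.529). The place of the Ogt feature relative to the deleted part is not known here, and the directions given for 8 weeks are those of arrays labelled KO. The muscle gene Acta1 stood at 15.04 to 15.89 in KO replicates 4 and 5 and WT replicate 4 at 4 weeks, against 4.24 to 6.11 in the other 17 arrays. The fourth array to stand apart was WT replicate 1 at 4 weeks. It was the highest of its group for 8 of the 9 antigen presentation genes (all but B2m), for 37 of 60 other pathway genes and for 18.9% of all genes. Over all features its mean Pearson's r with its group was 0.986, within the 0.977 to 0.990 of all 20 arrays. WT replicate 1 was marked out here by the values of the genes described. Leaving it out raises the 4-week KO difference of those 8 genes by construction, so such fits describe its weight and are not independent support. Main results without the arrays that stood apart are given beside those with all arrays. For the other pathway genes these fits were added after seeing the data.

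Class II chains rose in KO liver. H2-Aa, the alpha chain of I-A, and H2-Eb1, the beta chain of I-E, rose at 4 weeks, and these and H2-Ab1, the beta chain of I-A, rose at 8 weeks by 6.54-fold to 11.7-fold. On the class I side, the immunoproteasome subunit Psmb8 rose 3.74-fold at 4 weeks, and at 8 weeks no gene of that side among the 9 was called. A gene was called at a limma adjusted p under 0.05 over all 19505 genes. At 4 weeks 3 of the 9 genes were called higher, where 4.7% of all genes were, and none lower, where 5.48% were. Their median difference was 1.15, against 0.00 for all genes. In no gene of the 9 were the groups free of overlap at 4 weeks, where 4.06% of all genes were so with KO above WT. At 8 weeks 3 of 9 were again called higher (4.94% of all genes) and none lower (1.65%), with a median of 0.21 against -0.04 for all genes. The 10 genes were picked with earlier results of these data known, so these counts describe them and are not an independent test.

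**Figure D1:**
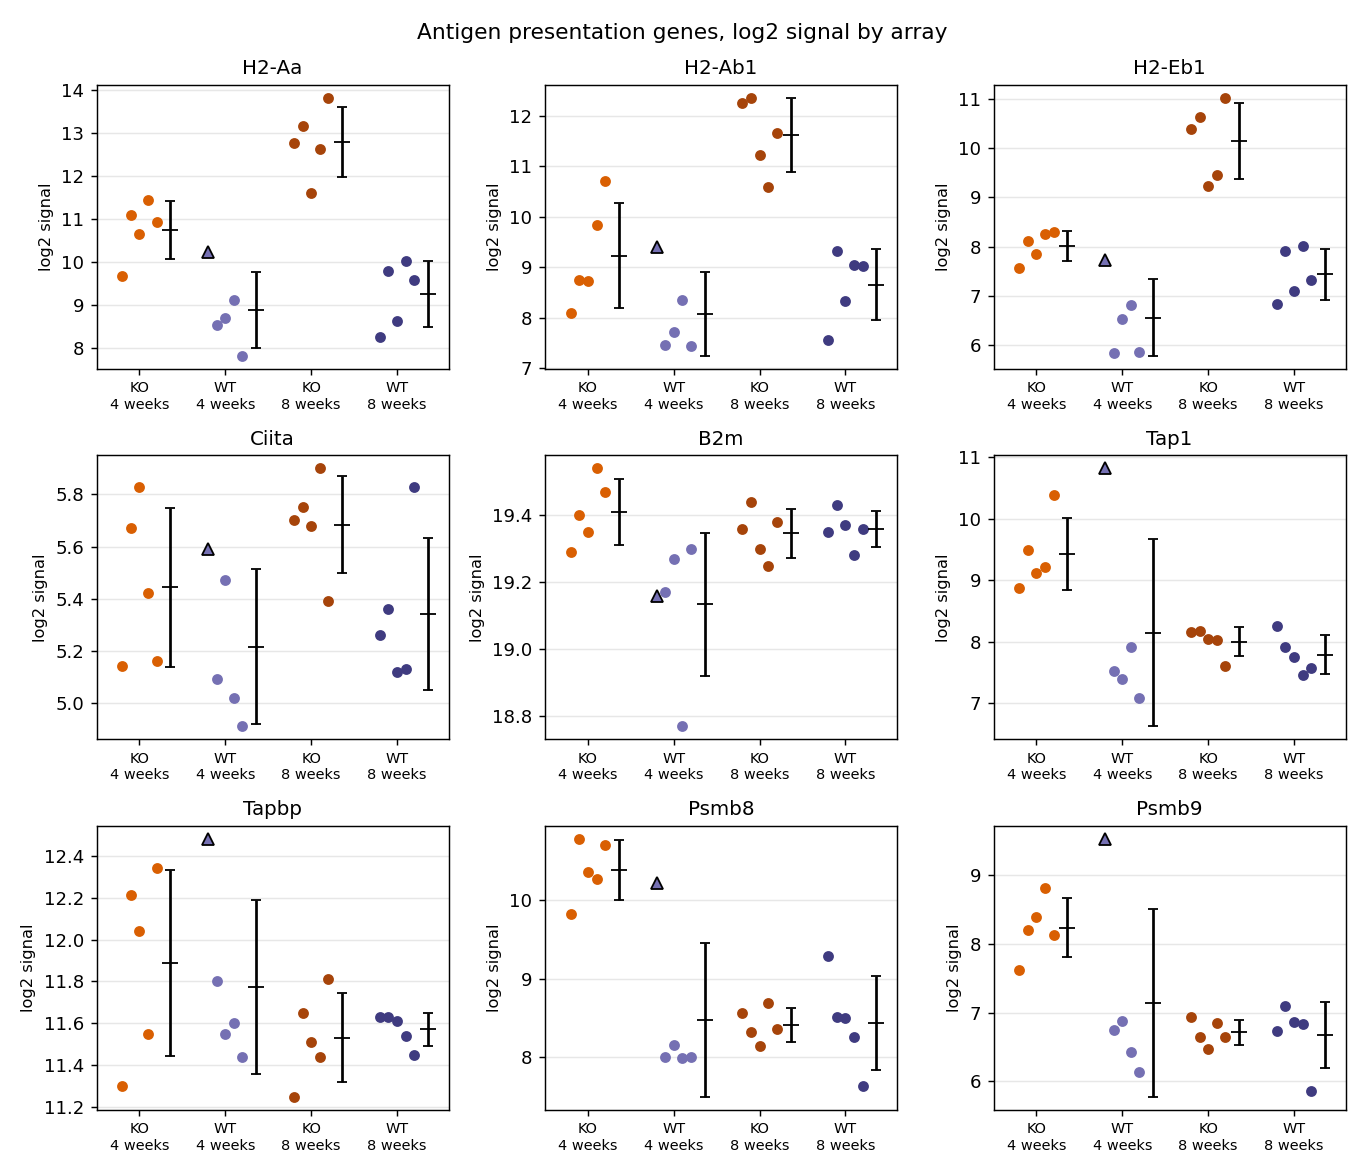
Log2 signal (vertical axis, scaled to each gene) of the 9 measured genes in each array, with KO left of WT at 4 weeks and then at 8 weeks. Points are single mice, the triangle is WT replicate 1 at 4 weeks, and the bars are the mean and SD of 5 arrays. The 3 class II chains in arrays labelled KO at 8 weeks lie above all WT arrays, while Tap1, Psmb8 and Psmb9 are high in the KO arrays at 4 weeks and in the triangle.

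H2-Aa had 9.66, 11.08, 10.64, 11.44 and 10.93 in the KO livers at 4 weeks, against 10.23, 8.53, 8.69, 9.11 and 7.81 in the WT livers. The groups met only at WT replicate 1, which was above the lowest KO array. The difference of 1.88 (95% interval 0.95 to 2.80) was 3.67-fold (limma adjusted p = 0.00835). At 8 weeks H2-Aa had 12.76, 13.17, 11.6, 12.62 and 13.82 in arrays labelled KO, against 8.24, 9.78, 8.62, 10.02 and 9.57 in WT. Every array labelled KO was above every WT array. The difference of 3.55 (2.62 to 4.47) was 11.7-fold (limma adjusted p = 2.95e-05).

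H2-Ab1 had 8.09, 8.76, 8.74, 9.84 and 10.72 in KO at 4 weeks, against 9.41, 7.46, 7.71, 8.36 and 7.45 in WT. Only KO replicates 4 and 5 were above all WT arrays, and both are arrays with muscle transcripts. The difference was 1.15 (0.17 to 2.13) and was not called (limma adjusted p = 0.137). Without WT replicate 1 it was 1.49 (limma adjusted p = 0.0463). At 8 weeks H2-Ab1 had 12.26, 12.36, 11.23, 10.6 and 11.66 in arrays labelled KO, against 7.57, 9.33, 8.33, 9.04 and 9.03 in WT. Here the groups did not overlap, and the difference was 2.96 (1.98 to 3.94), or 7.79-fold (limma adjusted p = 0.000349).

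H2-Eb1 had 7.57, 8.11, 7.85, 8.25 and 8.3 in KO at 4 weeks, against 7.72, 5.84, 6.54, 6.82 and 5.87 in WT. As for H2-Aa, WT replicate 1 was the 1 WT array within the range of KO. The difference was 1.46 (0.72 to 2.19), or 2.75-fold (limma adjusted p = 0.00974). At 8 weeks H2-Eb1 had 10.39, 10.63, 9.24, 9.45 and 11.02 in arrays labelled KO, against 6.83, 7.91, 7.1, 8.02 and 7.32 in WT. The groups did not overlap, with a difference of 2.71 (1.97 to 3.45), or 6.54-fold (limma adjusted p = 4.49e-05). No overlap with KO above WT was seen at 8 weeks for 3 of the 9 genes and for 4.13% of all genes.

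The 4-week calls of H2-Aa and H2-Eb1 were lost without the 3 arrays with muscle transcripts, at 1.65 (limma adjusted p = 0.0687) and 1.35 (limma adjusted p = 0.0646). Without those 3 arrays and WT replicate 1 together, 5 of the 9 genes were called higher at 4 weeks. The 8-week calls of the 3 chains held with each array left out in turn, at limma adjusted p up to 0.000198 for H2-Aa, 0.00189 for H2-Ab1 and 0.000280 for H2-Eb1. H2-Eb2, a second I-E beta gene, was not above background in any group.

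**Figure D2:**
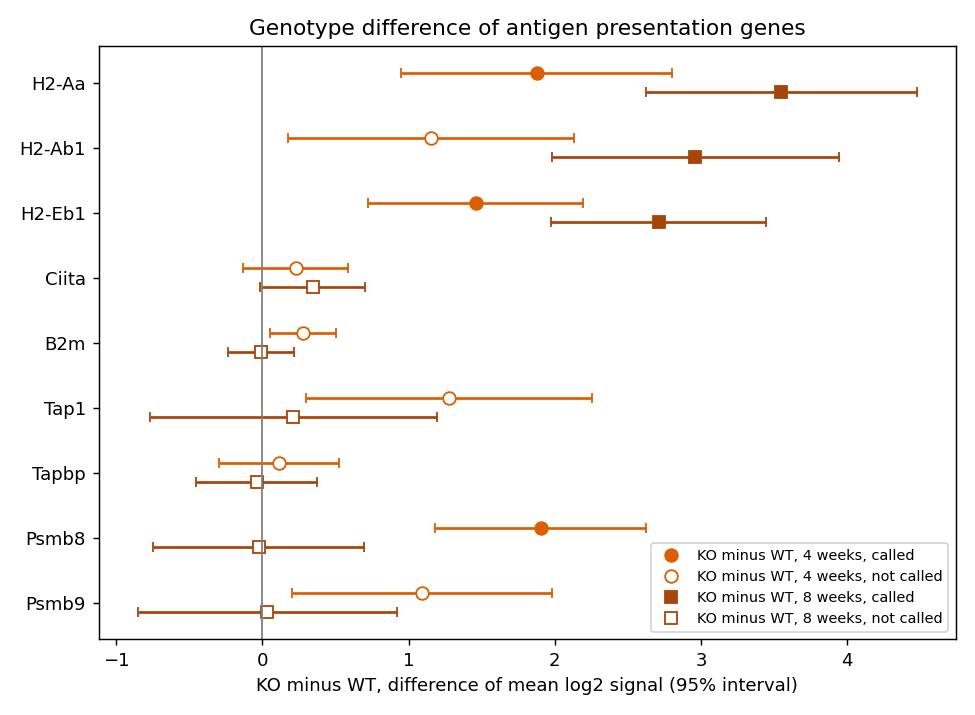
KO minus WT difference of mean log2 signal (horizontal axis) with its 95% interval, for 5 against 5 arrays, at 4 weeks (circles) and 8 weeks (squares, arrays labelled KO). Filled marks were called at a limma adjusted p under 0.05. The class II chains H2-Aa, H2-Ab1 and H2-Eb1 lie furthest right at 8 weeks, and Psmb8 at 4 weeks.

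Of 11 other genes that prepare or load class II molecules, 4 were called higher and 1 lower at 4 weeks (4.7% and 5.48% of all genes), and 6 higher and 0 lower at 8 weeks (4.94% and 1.65% of all genes). Without the 3 arrays with muscle transcripts the 4-week counts were again 4 and 1, and without WT replicate 1 they were 5 and 1. Ctss, the cathepsin that trims the invariant chain, was 1.38 higher at 4 weeks (limma adjusted p = 0.000698) and 1.91 higher at 8 weeks (limma adjusted p = 3.13e-05), with no overlap at either age. Lgmn, the lysosomal asparagine endopeptidase, was 0.90 higher at 4 weeks and 0.83 higher at 8 weeks (limma adjusted p = 0.00137 and 0.00353). H2-DMb1, a chain of the DM peptide exchanger, was 8.16 to 10.4 in arrays labelled KO and 6.26 to 7.62 in WT at 8 weeks (difference 2.74, limma adjusted p = 0.00185). H2-DMb2 was called higher at both ages, but both groups were not above background at 4 weeks and WT was not at 8 weeks, so its 8-week rise is at least 0.37. The gene called lower at 4 weeks was Marchf8 (-0.45, limma adjusted p = 0.0421), a ubiquitin ligase that removes class II molecules from the cell surface, named after its value was seen. Its call was lost in 8 of 20 fits with 1 array left out (limma adjusted p up to 0.134) and with the replicate block (limma adjusted p = 0.0694). Marchf1, a related gene of the same list, went the other way at 4 weeks. It was 6.04 to 6.69 in KO and 5.67 to 5.89 in WT, without overlap, and was not called.

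The coactivator itself was low. Ciita had 5.14, 5.67, 5.83, 5.42 and 5.16 in KO at 4 weeks, against 5.59, 5.09, 5.47, 5.02 and 4.91 in WT. At 8 weeks it had 5.7, 5.75, 5.68, 5.9 and 5.39 in arrays labelled KO, against 5.26, 5.36, 5.12, 5.13 and 5.83 in WT. The groups overlapped at both ages, and the group means, 5.22 to 5.68, stood close to the background of 5.01 to 5.20. The differences were 0.23 (-0.13 to 0.59, limma adjusted p = 0.500) and 0.34 (-0.02 to 0.70, limma adjusted p = 0.282) and neither was called. Of 7 other factors of class II transcription, 2 were called lower at 4 weeks (5.48% of all genes) and 0 at 8 weeks (1.65%). These were Nfyb (-0.59, limma adjusted p = 0.0245) and Nfyc (-0.36, limma adjusted p = 0.0354), subunits of the NF-Y complex that binds CCAAT boxes. The call of Nfyb was lost in 5 of 20 fits with 1 array left out (limma adjusted p up to 0.0693), and that of Nfyc in 6 of 20 (limma adjusted p up to 0.103) and with the replicate block (limma adjusted p = 0.0858). Of the 7, 0 were called without the 3 arrays with muscle transcripts.

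B2m, the light chain of class I, was near the top of the scale. It had 19.29, 19.4, 19.35, 19.54 and 19.47 in KO at 4 weeks, against 19.16, 19.17, 19.27, 18.77 and 19.3 in WT, with the lowest KO array just under the highest WT array. It had 19.36, 19.44, 19.3, 19.25 and 19.38 in arrays labelled KO at 8 weeks, against 19.35, 19.43, 19.37, 19.28 and 19.36 in WT, which overlapped throughout. The differences were 0.28 (0.05 to 0.50, limma adjusted p = 0.121) and -0.01 (-0.24 to 0.21, limma adjusted p = 0.973), and neither was called. The highest value on any array was 19.85, so B2m had little room above it, and how values over 16, more than a 16-bit scanner can record, came about is not given in the sources used here.

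Part of the class I heavy chains rose at 4 weeks. Of 14 measured, 7 were called higher at 4 weeks (4.7% of all genes) and 1, H2-M3, at 8 weeks (0.72, limma adjusted p = 0.0141; 4.94% of all genes). Without the 3 arrays with muscle transcripts 6 were called higher at 4 weeks, and without WT replicate 1 there were 7. H2-Q4 was 9.97 to 10.73 in KO and 8.37 to 9.34 in WT at 4 weeks (1.49, limma adjusted p = 3.30e-05), and H2-K1, a classical heavy chain, was 16.64 to 16.92 in KO and 15.75 to 16.39 in WT (0.75, limma adjusted p = 0.000292). H2-T10, a nonclassical chain, was 1.11 higher in KO (limma adjusted p = 0.000312). At 8 weeks the 3 differences were 0.59, 0.02 and 0.06 and were not called. Heavy chain genes are near-identical in parts, so a signal may belong in part to a neighbour, and the array's symbol was used.

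Tap1 had 8.88, 9.5, 9.12, 9.22 and 10.39 in KO at 4 weeks, against 10.82, 7.52, 7.4, 7.92 and 7.08 in WT. All 5 KO arrays were above 4 of the WT arrays and the fifth, replicate 1, was above all KO arrays. With it the difference was 1.27 (0.29 to 2.25) and was not called (limma adjusted p = 0.0961). Without it, the highest WT array, the difference rises by construction and was 1.94 (limma adjusted p = 3.40e-05). At 8 weeks Tap1 had 8.16, 8.18, 8.04, 8.03 and 7.6 in arrays labelled KO, against 8.26, 7.91, 7.75, 7.46 and 7.57 in WT, which overlapped (0.21, -0.77 to 1.19, limma adjusted p = 0.866). Of 6 other class I loading genes, 1 was called higher at 4 weeks (4.7% of all genes) and 0 at 8 weeks (4.94%). None was called lower at either age (5.48% and 1.65% of all genes). Tap2, the partner of Tap1, was the gene called at 4 weeks (1.01, limma adjusted p = 0.00755). Its call was lost without the 3 arrays with muscle transcripts (0.87, limma adjusted p = 0.0534), and without WT replicate 1 there were 2 calls among the 6.

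Tapbp had 11.3, 12.21, 12.04, 11.55 and 12.34 in KO at 4 weeks, against 12.48, 11.8, 11.55, 11.6 and 11.44 in WT. Its values at 8 weeks were 11.25, 11.65, 11.51, 11.44 and 11.81 in arrays labelled KO, against 11.63, 11.63, 11.61, 11.54 and 11.45 in WT. The groups overlapped at both ages. The differences were 0.11 (-0.30 to 0.53, limma adjusted p = 0.813) and -0.04 (-0.45 to 0.37, limma adjusted p = 0.949).

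Psmb8 had 9.82, 10.77, 10.35, 10.26 and 10.69 in KO at 4 weeks, against 10.21, 8, 8.16, 7.99 and 8.01 in WT. WT replicate 1 was the only WT array in the KO range, 2.05 above the next. The difference of 1.90 (1.18 to 2.63) was called with it (limma adjusted p = 0.00101) and was 2.34 without it (limma adjusted p = 3.37e-06). At 8 weeks Psmb8 had 8.56, 8.32, 8.14, 8.69 and 8.36 in arrays labelled KO, against 9.29, 8.51, 8.5, 8.26 and 7.64 in WT. The KO values lay inside the WT range (-0.03, -0.75 to 0.70, limma adjusted p = 0.983).

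Psmb9, whose start lies 226 bases from that of Tap1 on the opposite strand, had 7.62, 8.2, 8.39, 8.81 and 8.13 in KO at 4 weeks, against 9.52, 6.74, 6.87, 6.43 and 6.13 in WT. As for Tap1, WT replicate 1 was the highest of all 20 arrays. The difference was 1.09 (0.20 to 1.98, limma adjusted p = 0.118), and 1.69 without that array (limma adjusted p = 8.77e-05). At 8 weeks Psmb9 had 6.94, 6.64, 6.47, 6.85 and 6.65 in arrays labelled KO, against 6.73, 7.09, 6.86, 6.84 and 5.86 in WT (0.03, -0.85 to 0.92, limma adjusted p = 0.982). Of 4 other immunoproteasome genes, 1 was called higher at 4 weeks (4.7% of all genes) and 0 at 8 weeks (4.94%). None was called lower at either age (5.48% and 1.65% of all genes). The gene called at 4 weeks was Psme1 (0.58, limma adjusted p = 0.0444). The call of Psme1 was lost in 15 of 20 fits with 1 array left out (limma adjusted p up to 0.135), with the replicate block (limma adjusted p = 0.0731) and without the 3 arrays with muscle transcripts (limma adjusted p = 0.154). Without WT replicate 1, 3 of the 4 were called higher at 4 weeks.

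**Figure D3:**
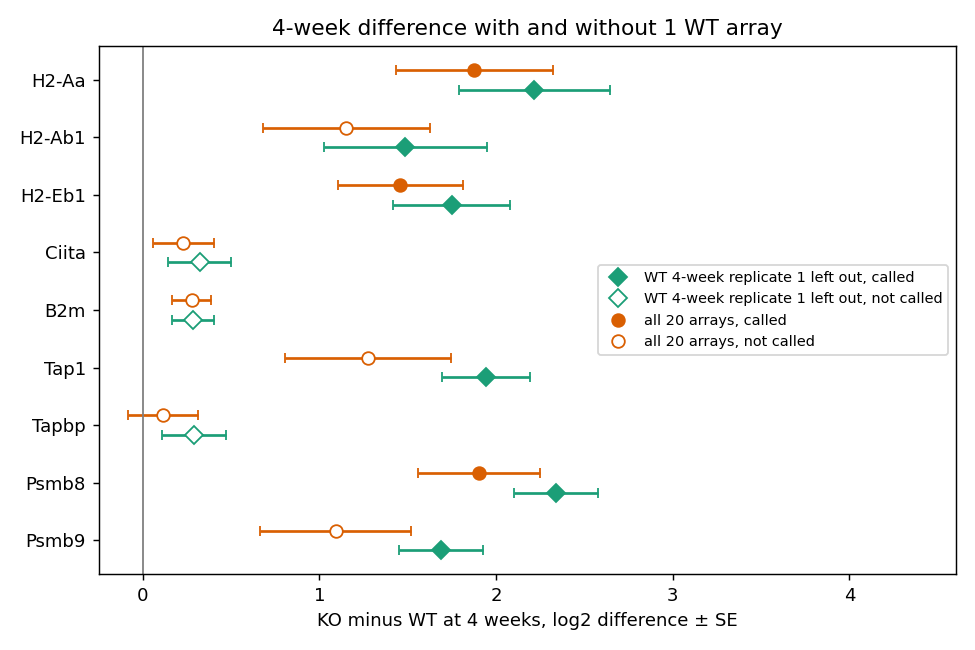
KO minus WT difference at 4 weeks on the log2 scale with its standard error (horizontal axis), for all 20 arrays (circles) and with WT replicate 1 at 4 weeks left out (diamonds). Filled marks were called at a limma adjusted p under 0.05. Tap1 goes to 1.94 with the array left out, against 1.27 with all arrays, and Psmb9 to 1.69, against 1.09. The array was the highest 4-week WT array for 8 of the 9 genes, so leaving it out raises their differences by construction.

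WT replicate 1 at 4 weeks also had other immune transcripts, chosen after their values were seen. Gbp2, an interferon-induced GTPase, was 10.14 there, against 6.32 to 7.18 in the other 4 WT arrays and 7.85 to 10.87 in KO. Cxcl9, an interferon-induced chemokine, was 11.89 there and 8.7 to 10.77 in the other 4. Ifit1 and Irf7, type I interferon targets, stood at 7.38 and 9.3, against 9.61 to 11.53 and 11.12 to 13.62 in KO and 6.58 to 7.21 and 7.4 to 8.48 in the other WT arrays. In that array 77 genes (0.395% of all) were at least 1 log2 unit above the other 4 of its group. Why it stood apart was not tested.

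Whether the KO difference changed with age was tested as the 8-week difference minus the 4-week difference. Psmb8 was the 1 of 9 genes called, lower by -1.93 (limma adjusted p = 0.0343), where 1% of all genes were called lower and 2.05% higher. Its call was lost in 13 of the 20 fits with 1 array left out (limma adjusted p up to 0.0682), and without the 3 arrays with muscle transcripts (-1.74, limma adjusted p = 0.105), as well as with the replicate block (-1.93, limma adjusted p = 0.0668). Without WT replicate 1, Tap1 (-1.73) and Psmb9 (-1.65) were called as well (limma adjusted p = 0.00817 for both). The class II chains had larger differences at 8 weeks than at 4 weeks, by 1.67 for H2-Aa, 1.81 for H2-Ab1 and 1.25 for H2-Eb1, none of them called (limma adjusted p = 0.172, 0.159 and 0.207). Without the 3 arrays with muscle transcripts, that of H2-Ab1 was 2.44 (limma adjusted p = 0.0446). Of 60 other pathway genes, H2-K1 (-0.73, limma adjusted p = 0.0219) and H2-T10 (-1.06, limma adjusted p = 0.0255) were called lower. Ifngr1, a chain of the interferon-gamma receptor, was called higher (1.36, limma adjusted p = 0.0261). With the replicate block the calls of H2-K1 (limma adjusted p = 0.0667) and H2-T10 (limma adjusted p = 0.0524) were lost, as they were without the 3 arrays with muscle transcripts (limma adjusted p = 0.0833 and 0.0756). The call of Ifngr1 was lost in 3 of 20 fits with 1 array left out (limma adjusted p up to 0.0540).

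Within KO, 3 of the 9 genes were called higher and 3 lower at 8 weeks than at 4 weeks. The class II chains were higher at 8 than at 4 weeks by 2.04 for H2-Aa, 2.39 for H2-Ab1 and 2.13 for H2-Eb1 (limma adjusted p = 0.00296, 0.00127 and 0.000262), where 7.85% of all genes were called higher. H2-Aa and H2-Eb1 had no overlap between the ages, as 4.79% of all genes did with 8 weeks higher. Psmb8 (-1.96), Psmb9 (-1.52) and Tap1 (-1.42) were lower at 8 weeks, with no overlap (limma adjusted p = 0.000473, 0.0187 and 0.0464), where 6.78% of all genes were called lower and 4.69% were lower without overlap. Tapbp (-0.36), B2m (-0.06) and Ciita were not called. The call of Tap1 was lost in 14 of 20 fits with 1 array left out, and without the 3 arrays with muscle transcripts 1 of the 3 calls held (Psmb8). In WT none of the 9 genes was called between ages, where 3.71% of all genes were called higher and 5.23% lower. Without replicate 1, H2-Eb1 was higher at 8 weeks in WT by 1.17 (limma adjusted p = 0.0340). These comparisons use the same arrays as the KO against WT comparisons and are not independent of them.

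**Figure D4:**
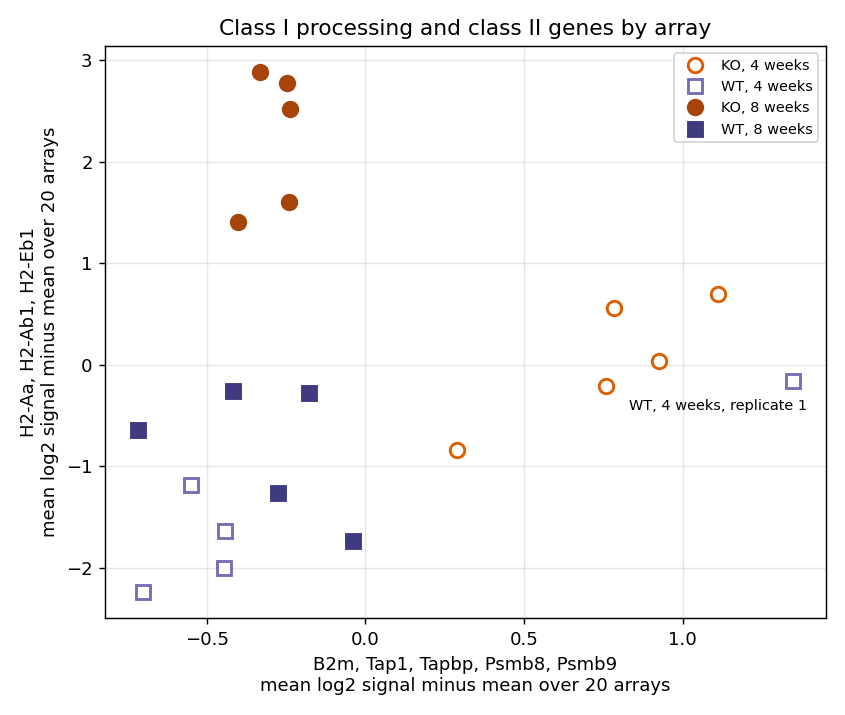
Mean centred log2 signal of B2m, Tap1, Tapbp, Psmb8 and Psmb9 (horizontal axis) against that of H2-Aa, H2-Ab1 and H2-Eb1 (vertical axis), with 1 mark per array, circles for KO and squares for WT. The KO arrays at 4 weeks lie to the right, those labelled KO at 8 weeks lie at the top left, and WT replicate 1 at 4 weeks lies to the right.

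As a description, Pearson's r over the 20 arrays was 0.967 between H2-Aa and H2-Eb1 and 0.903 after group means were taken away. It was 0.894 between Tap1 and Psmb8 (0.868 without group means) and 0.155 between H2-Aa and Psmb8 (0.336 without group means). Between H2-Aa and Ciita it was 0.611, and 0.286 without group means. The arrays share groups, and part of each pooled r is the difference between groups.

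Outside the gene lists, the symbols most like the mean of the 3 class II chains were Gas6 (r = 0.939), Tbx20 (0.923), Myof (0.917), Bicc1 (0.916) and Robo2 (0.910). After group means were taken away these were 0.802, 0.739, 0.686, 0.637 and 0.466. Those most like the mean of B2m, Tap1, Tapbp, Psmb8 and Psmb9 were Irgm1 (r = 0.926), Zbp1 (0.921), Gbp4 (0.908), Igtp (0.899) and Gbp3 (0.892), with 0.885, 0.826, 0.846, 0.877 and 0.843 after group means were taken away.

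Of the 60 other pathway genes measured, 16 were called higher and 3 lower at 4 weeks (4.7% and 5.48% of all genes). At 8 weeks 9 were called higher and 0 lower (4.94% and 1.65% of all genes). Without the 3 arrays with muscle transcripts, 10 were higher and 1 lower at 4 weeks. Of 9 genes of interferon-gamma signalling and class I transcription, 1 was called higher at each age (4.7% of all genes at 4 weeks and 4.94% at 8 weeks), and 0 at 4 weeks without the 3 arrays with muscle transcripts or without WT replicate 1. At 4 weeks this was Ifng, the cytokine itself, which was not above background in KO (3.46 to 4.39) or WT (2.77 to 3.71). At 8 weeks it was Ifngr1, at 9.3 to 10.58 in arrays labelled KO and 8.19 to 9.02 in WT (1.26, limma adjusted p = 0.00144). Of 6 co-stimulation genes, 2 were called higher at 4 weeks (4.7% of all genes) and 1 at 8 weeks (4.94%). Without the 3 arrays with muscle transcripts there were 0 at 4 weeks. Icosl, the ligand of ICOS on T cells, was called at both ages (1.02 at 4 weeks and at least 1.20 at 8 weeks, where WT was not above background). Its 4-week call was lost in 5 of 20 fits with 1 array left out (limma adjusted p up to 0.0825). Cd40, the other gene called at 4 weeks (0.55, limma adjusted p = 0.0498), was not above background in any group. The call of Cd40 was lost in 15 of 20 such fits (limma adjusted p up to 0.116).

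**Figure D5:**
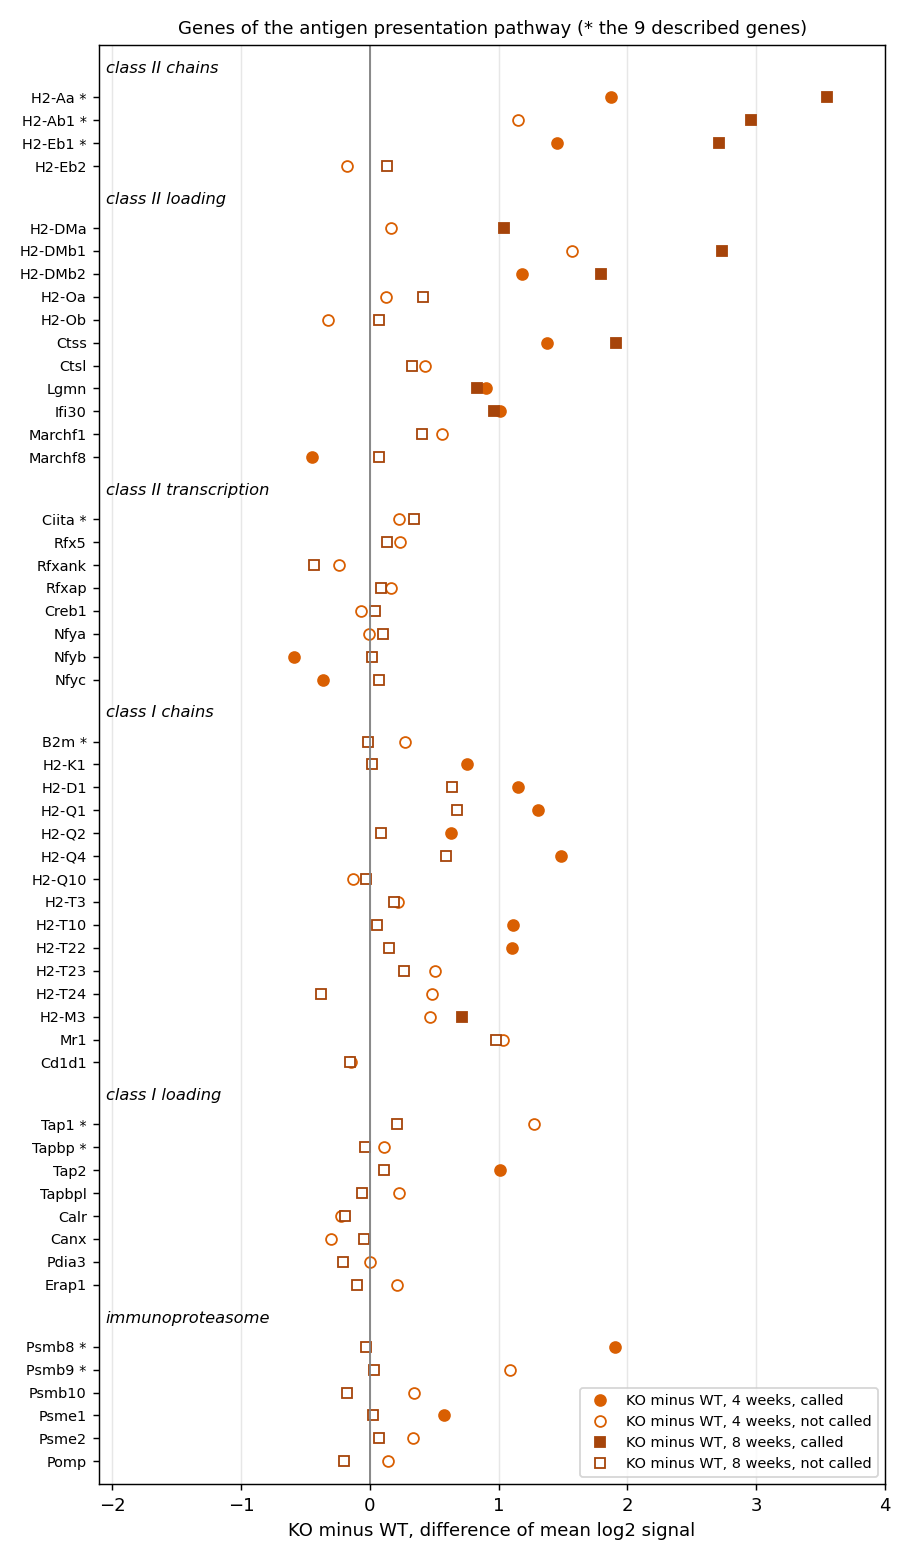
KO minus WT difference of mean log2 signal (horizontal axis) at 4 weeks (circles) and 8 weeks (squares, arrays labelled KO), for the 9 genes (asterisks) and other genes of the class II and class I lists. Filled marks were called at a limma adjusted p under 0.05. Among class I chains, 7 circles and 1 square are filled, and among class II loading genes 4 circles right of 0, 1 circle left of 0 and 6 squares.

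Markers of other cell types were called too, and their counts stand beside 4.7% of all genes higher and 5.48% lower at 4 weeks and 4.94% higher and 1.65% lower at 8 weeks. In whole liver, more cells of a type and more RNA per cell cannot be told apart. Ptprc (CD45), found on all white blood cells, was 1.08 higher in KO at 4 weeks (limma adjusted p = 0.00141) and 1.04 higher in arrays labelled KO at 8 weeks (limma adjusted p = 0.00254). Of 3 pan-leukocyte markers, 3 were called higher at 4 weeks and 2 at 8 weeks, and Coro1a was not above background in any group. The 4-week count was 2 without the 3 arrays with muscle transcripts, and 2 without WT replicate 1. The summed pan-leukocyte signal was 9.74 to 10.4 in KO and 8.82 to 9.35 in WT at 4 weeks, and 9.50 to 10.3 in arrays labelled KO and 8.41 to 9.0 in WT at 8 weeks. Of 5 macrophage markers, 1 was called higher at 4 weeks and 3 at 8 weeks, namely Lyz2 (2.39), Csf1r (0.94) and Adgre1 (0.81), with a summed signal at 8 weeks of 11.6 to 13.1 in arrays labelled KO and 10.8 to 11.1 in WT.

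Of 5 markers of resident Kupffer cells, 1 was called higher at 4 weeks and 0 at 8 weeks, and between 8 and 4 weeks in KO all 5 were called lower (6.78% of all genes). In WT all 5 differences were below 0 as well (median -0.94), with 2 of 5 called lower (5.23% of all genes), and the change of the KO difference with age was called for 0 of 5. Of 6 markers of monocyte-derived and lipid-associated macrophages, 3 were called higher at 4 weeks and 4 at 8 weeks. Among these markers Itgam, a defining marker of the list, Trem2 and Cx3cr1 were not above background in any group. The summed signal of the 6 markers was 7.94 to 10.3 in KO and 7.19 to 7.84 in WT at 4 weeks. At 8 weeks it was 8.14 to 8.89 in arrays labelled KO and 7.29 to 7.66 in WT. Of 6 sinusoidal endothelial markers, 1 was called lower at 4 weeks and 1 higher at 8 weeks. All 5 cholangiocyte markers measured were called higher at 8 weeks (median 2.33, Epcam 4.00), at a summed 10.2 to 13.6 in arrays labelled KO and 7.42 to 8.69 in WT. Epcam and Krt19 were not above background in WT at 8 weeks, so the sizes of their rises are uncertain.

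Dendritic cells and B cells, like activated macrophages, carry class II by profession. None of 9 dendritic and none of 7 B cell markers was called at either age. At 4 weeks 1 dendritic marker was called higher without the 3 arrays with muscle transcripts. The defining markers Flt3 and Zbtb46 (dendritic cells) and Ms4a1 (B cells) were not above background in any group. In each group 2 of the 9 dendritic markers (Clec10a and Ccr7) and 0 of the 7 B cell markers were above background. These lists could therefore show little of a change in those cells. The summed dendritic signal was 8.19 to 8.35 in arrays labelled KO and 7.99 to 8.44 in WT at 8 weeks. Of the 6 hepatocyte markers, 0 were called at either age, and Alb averaged 19.7 to 19.8 in every group. The highest value on any array was 19.85, and signals high on the scale limit what differences can be seen. At 4 weeks 0 of the 6 differences were above 0 (-0.42 to -0.006). Of 8 markers of T and NK cells, 1 was called higher at 4 weeks, Cd3e, and 1 lower at 8 weeks, Cd4 (6.35 in arrays labelled KO and 7.14 in WT). Cd3e and Ncr1, defining markers of T and NK cells, were not above background in any group.

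The log2 signal of Ptprc was also subtracted array by array, an alternative added after the data were seen. At 8 weeks H2-Aa minus Ptprc then differed between arrays labelled KO and WT by 2.51, H2-Ab1 minus Ptprc by 1.92 and H2-Eb1 minus Ptprc by 1.67 (exact two-sided permutation p = 0.00794 each, the smallest that 5 against 5 arrays allow, and 0.0204 after Benjamini-Hochberg adjustment over 18 tests). At 4 weeks the differences were 0.80, 0.07 and 0.38 (exact two-sided permutation p = 0.143, 0.905 and 0.333). Other genes minus Ptprc were lower in KO. At 8 weeks these were B2m (-1.05) and Tapbp (-1.08), at an adjusted permutation p of 0.0204 each. At 4 weeks they were Ciita (-0.85), B2m (-0.80) and Tapbp (-0.96), at an adjusted permutation p of 0.0204, 0.0204 and 0.0357. None of these genes was called at either age without the subtraction. Ptprc itself was higher in KO at both ages, so a gene with no KO difference comes out lower by about the rise of Ptprc. These lower values thus largely restate the rise of Ptprc and do not show a fall of the genes. Tap1, Psmb8 and Psmb9 had no adjusted permutation p under 0.05. The part of the other cell markers in the class I and class II results was not tested.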

How the data were processed

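Total RNA of liver powder was amplified, biotin labelled and hybridised to Clariom S Mouse arrays, per the labels' protocols. The authors deposited log2 signals made with RMA in Affymetrix Expression Console, per the submitters' processing notes, with versions not given in the sources used here. They were used as deposited. Scan batches were not used here. Array numbers in the titles run group by group, so a change along the array order cannot be told apart from group.

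Of 22206 features, 19572 had 1 gene symbol in the platform annotation. For 55 symbols with more than 1 feature the one with the highest mean over 20 arrays was kept, which removed 67 and left 19505 genes. Each antigen presentation gene measured had 1 feature. Of 67 other genes in the pathway lists, 60 were measured; the rest are not reported here.

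Groups came from the genotype and age labels. A model of 4 group means was fitted with limma 3.58.1 in R 4.3.3 (eBayes, 16 residual degrees of freedom), with Benjamini-Hochberg adjustment over 19505 genes and a call at an adjusted p under 0.05. The script was tested on simulated data. Pathway genes were named by rule, up to 3 of a list with the smallest adjusted p among those called at each age, and other names were picked after their values were seen. The genes, lists and tests were chosen with earlier results of these data known. The background level used 1412 receptor genes. Alternatives were scaling, a filter on dim genes, eBayes options, array weights, the groups in the fit, the replicate block and leaving out arrays. The number of arrays, 5 per group, limits the precision.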

Additional observations from a re-analysis of the deposited data

Results flagged for a closer look

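Of 25 named genes in 4 groups, 100 sets of 5 arrays were looked at for 1 array far from the other 4, and 8 were found. Chance gives about 1 in 20 for independent sets. Here the sets share arrays, genes vary together and some were named by their adjusted p, so that rate is no test of the 8. Of the 8, 5 were in WT at 4 weeks, 4 of them in replicate 1. That array had 10.82 for Tap1 (nearest other 7.92), 10.21 for Psmb8 (8.16), 9.52 for Psmb9 (6.87) and 15.54 for Psme1 (14.62). WT replicate 4 at 4 weeks, an array with muscle transcripts, had a low B2m of 18.77 (nearest 19.16). In arrays labelled KO at 8 weeks, replicate 5 had a low Tap1 of 7.6 (nearest 8.03) and replicate 4 a low Psme1 of 14.26 (nearest 14.7). In WT at 8 weeks, replicate 2 had a high H2-T10 of 11.49 (nearest 11.27).

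The KO difference itself differed between the ages, by a test of the 8-week minus the 4-week difference, for 4 named genes. These were Psmb8 (-1.93, limma adjusted p = 0.0343), H2-K1 (-0.73, limma adjusted p = 0.0219), H2-T10 (-1.06, limma adjusted p = 0.0255) and Ifngr1 (1.36, limma adjusted p = 0.0261). The calls of Psmb8, H2-K1 and H2-T10 were lost with the replicate block and without the 3 arrays with muscle transcripts. With 1 array left out, Psmb8 was lost in 13 of 20 fits, H2-T10 in 2, Ifngr1 in 3 and H2-K1 in 0. The directions rest on arrays labelled KO at 8 weeks, where Ogt was not called lower.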

How the results depend on the processing

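In KO against WT, the calls of H2-Aa, H2-Ab1 and H2-Eb1 at 8 weeks and of Psmb8 at 4 weeks held under every alternative run. With 1 array left out, 3 to 6 of the 9 genes were called higher at 4 weeks, 11 to 19 other pathway genes higher and 0 to 3 lower, and at 8 weeks 3 genes and 8 to 11 other pathway genes were called higher. For the change of the KO difference with age, 0 to 3 of the 9 genes were called lower, with 0 to 1 other pathway genes higher and 1 to 5 lower. In KO 1 to 3 genes were called lower with age, and in WT 0 to 1 higher. Differences that turned sign with 1 array left out were small and none was called. At 8 weeks KO against WT they were B2m (-0.036 to 0.012), Tapbp (-0.11 to 0.031), Psmb8 (-0.23 to 0.19) and Psmb9 (-0.17 to 0.14). Between ages in WT they were Tap1 (-0.63 to 0.31), Psmb8 (-0.25 to 0.40) and Psmb9 (-0.71 to 0.13). Psmb9 in KO lost its call between ages without KO replicate 4 at 4 weeks (limma adjusted p = 0.0503). Without the 3 arrays with muscle transcripts, 1 of the 9 genes was called higher at 4 weeks, with 10 other pathway genes higher and 1 lower; the change with age had 1 gene higher (H2-Ab1), 0 lower and 0 other pathway genes lower; and 1 gene was lower with age in KO, where Tap1 was -1.16 (limma adjusted p = 0.180) and Psmb9 -1.36 (limma adjusted p = 0.0776). Without these and WT replicate 1, chosen after seeing the data, 5 genes were higher and 1 other pathway gene lower at 4 weeks. The change with age then had 3 genes lower, Ciita at -0.046 and 0 other pathway genes lower. In WT 1 gene (H2-Eb1, 1.35) was then higher with age, and Tap1 (0.46), Psmb8 (0.38) and Psmb9 (0.10) turned sign. With array medians set equal, Psmb9 at 8 weeks was -0.059. After repeated quantile normalization, B2m was 0.068 and Psmb9 -0.081 at 8 weeks, B2m -0.024 and Psmb8 0.032 between ages in WT, and 1 other pathway gene was lower at 4 weeks, as with only the compared groups in the fit. With array weights, B2m (0.00042) and Psmb8 (0.0035) turned sign at 8 weeks, and Tap1 in KO lost its call between ages (-1.37, limma adjusted p = 0.0756), as with the trend and robust options (limma adjusted p = 0.0757). Replicate numbers were not used as pairs in the main fit. Deviations of same-numbered KO and WT arrays correlated at -0.15 to 0.48 at 4 weeks and -0.18 to 0.14 at 8 weeks. The highest, 0.48, was for replicate 4 at 4 weeks, where both arrays had muscle transcripts. Arrays of unlike number were not compared, so whether the numbers pair the arrays was not tested. With the replicate block, 1 other pathway gene was lower at 4 weeks, and for the change with age 0 of the 9 genes (Psmb8 -1.93, limma adjusted p = 0.0668) and 0 other pathway genes were lower. Apart from the effects of fewer arrays in a fit, the cause of these changes was not tested. Over all genes, array medians set equal moved the share of calls that were higher to 34.7%, against 46.2%, at 4 weeks and to 52.9%, against 75%, at 8 weeks. Other features of the genes were not run, since each had 1. Signals near the top of the scale, as for B2m, limit what differences can be seen, and Ciita lay close to background.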
